A study of Drosophila melanogaster with 8 samples.

Results

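The 9 genes described here belong to the c-Jun N-terminal kinase (JNK) pathway of Drosophila melanogaster and were chosen by name: the adaptor gene Traf4, the kinase genes slpr, hep, Mkk4 and bsk, the transcription factor genes Jra and kay, and the target genes puc and scaf. All 9 were found by FlyBase identifier among the 11769 genes of the deposited count table, and all 9 passed the low-count filter that left 7844 genes for testing. Their transcripts were counted in larval macrophages, blood cells (hemocytes) sorted for the GFP reporter hmlΔ>2xeGFP, which the Hemolectin (Hml) promoter drives, from larvae labelled Wild-type. Larvae ate a standard sucrose-yeast food (control diet, CD; replicates 1, 3, 4 and 5) or that food with 10x sucrose added (high-sugar diet, HSD; replicates 1, 2, 3 and 4). Per the labels, 5 larvae were bled at 96 h after egg laying and 20000 cells were sorted per replicate, all in 1 batch. The labels do not say whether libraries of a diet came from separate cultures, so the p-values rest on a spread between libraries that may be technical.

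JNK signalling is a relay of protein kinases that many stresses and the fly tumour necrosis factor Eiger can switch on. Membrane receptors and adaptors such as Traf4 act on a first tier of kinases, which includes Slipper (slpr); these phosphorylate Hemipterous (hep) and Mkk4, which in turn phosphorylate the JNK itself, Basket (bsk). Active Basket phosphorylates the AP-1 transcription factors Jun (Jra) and Fos (kay), and their target genes include puckered (puc), a phosphatase that switches Basket off again. In fly hemocytes the pathway is known for its part in cell shape, wound responses and the formation of lamellocytes. Since the relay works by phosphorylation, transcript levels do not measure its activity.

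Between the diets, 3 of the 9 genes differed. The target gene scaf was 2.95-fold higher on the high-sugar diet, the feedback phosphatase gene puc was 1.14-fold higher, and the adaptor gene Traf4 was 2.19-fold lower. The kinase genes slpr, hep, Mkk4 and bsk and the AP-1 genes kay and Jra did not pass the test (edgeR quasi-likelihood test, adjusted over all genes tested, threshold 0.05). Across all genes tested 26.0% were called, 14.4% higher and 11.6% lower, so 3 calls among 9 genes were close to that background share. The median log2 fold change of the 9 genes was 0.01, against −0.01 over all genes tested. Under plain library-size scaling these medians were −0.15 and −0.17, a shift that moves every direction given here by the same amount.

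**Figure D1:**
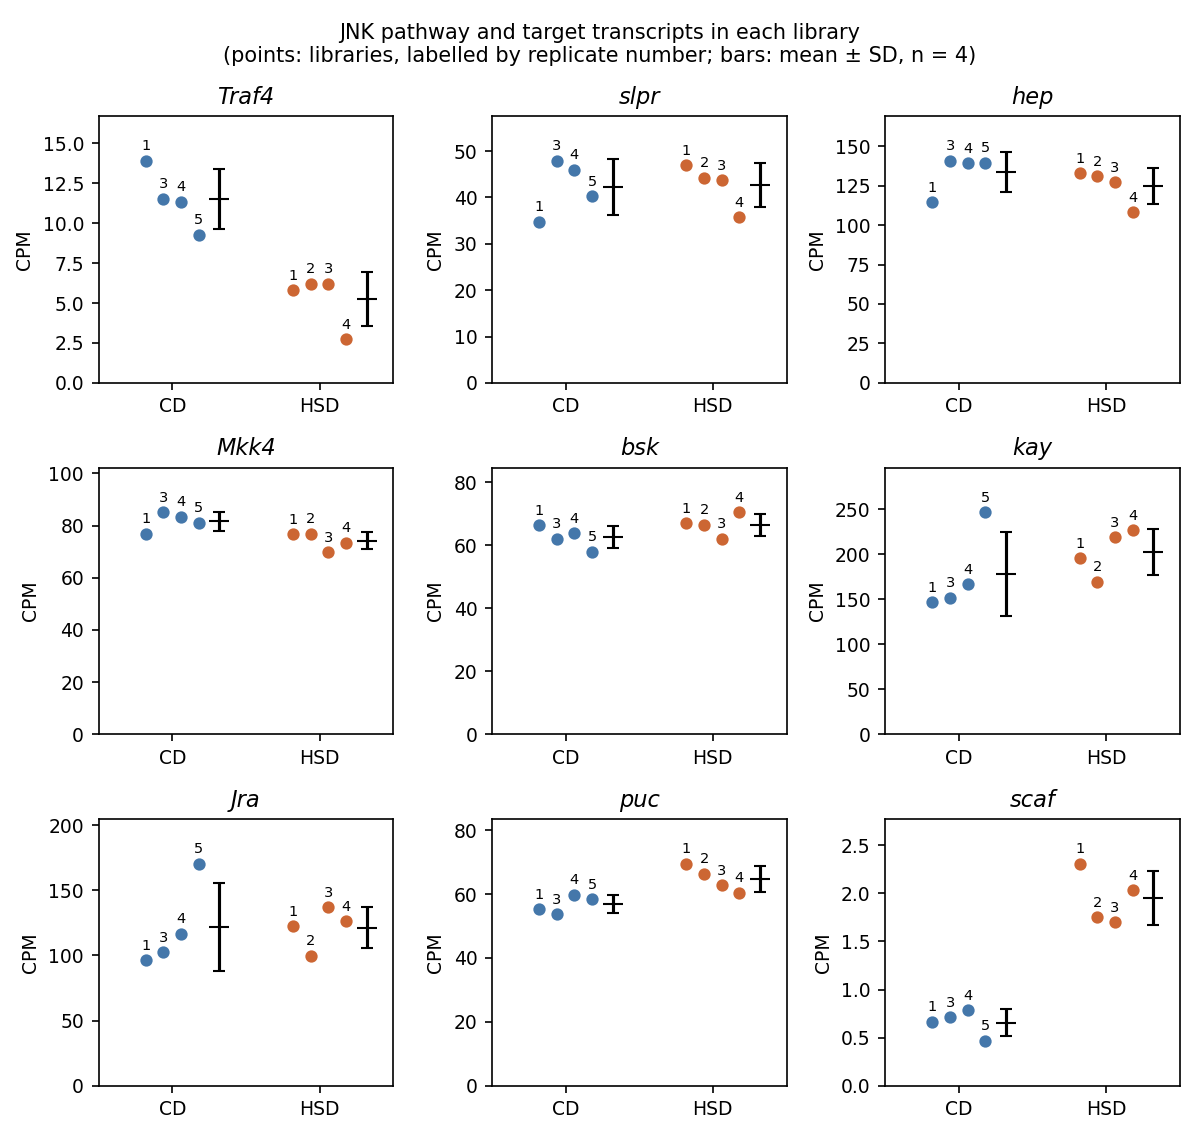
CPM (counts per 1000000 counts of the library size after scaling by the trimmed mean of M-values, TMM; vertical axes from 0) of the 9 genes in each of the 8 libraries, with the mean ± SD of 4 libraries per diet. The libraries of the diets separate in Traf4, Mkk4, puc and scaf, as they do in 28.0% of all genes tested. CD replicate 5 stands highest in kay and Jra.

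Total counts ran from 20817891 to 24733521 per library. The macrophage markers Hml, at 14090 to 22507 CPM, and 9 further plasmatocyte genes were detected in every library. CD replicate 1 stood apart through heat-shock genes: the list of immediate early and sorting stress genes summed to 43055 CPM there and to 4039 to 5571 CPM in the other libraries. HSD replicate 4 stood apart from the other HSD libraries in crystal cell markers, at 29409 CPM against 40635 to 44769 CPM. Results whose calls change without these libraries are given without them too.

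Per exonic length, Jra was the most abundant of the 9 transcripts and scaf the scarcest on both diets. On the control diet the mean was 74.0 ± 20.6 RPKM (CPM divided by kilobases of merged exon; SD, n = 4) for Jra, 31.0 ± 1.75 for bsk, 22.8 ± 5.98 for kay, 21.5 ± 2.03 for hep, 19.9 ± 0.864 for Mkk4, 17.9 ± 0.881 for puc, 7.52 ± 1.06 for slpr, 3.57 ± 0.589 for Traf4 and 0.190 ± 0.0395 for scaf. From bsk down to puc each gene's range over the CD libraries overlapped that of the next, so the order of these 5 levels is not settled by their spread. Jra, slpr, Traf4 and scaf were separated from their neighbours. On the high-sugar diet puc ranked above hep and Mkk4, at 20.4 ± 1.26 RPKM against 20.1 ± 1.84 and 18.1 ± 0.804 RPKM, and its range again overlapped that of hep.

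**Figure D2:**
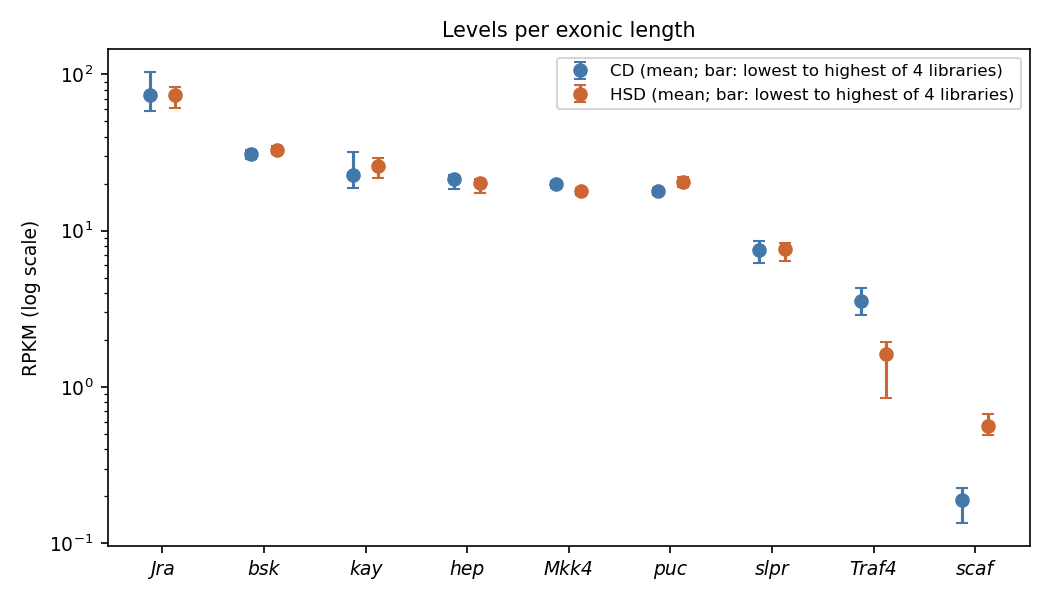
Level per exonic length (RPKM, log axis) of the 9 genes, with points for the mean of 4 libraries and bars from the lowest to the highest library. Jra lies highest and scaf lowest on both diets, and only Traf4 and scaf shift by more than 2-fold.

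Traf4 encodes an adaptor of the TRAF family that links receptors of the tumour necrosis factor type to the kinase relay. It lies on chromosome 2L from 4361925 to 4380716 in the dm6 assembly. Traf4 stood at 13.9, 11.5, 11.4 and 9.28 CPM in CD replicates 1, 3, 4 and 5, from 219 to 309 counts per library. In HSD replicates 1, 2, 3 and 4 it stood at 5.82, 6.21, 6.22 and 2.73 CPM, the last from 55 counts. Every HSD library lay below every CD library, and HSD replicate 4 lay far below the other HSD libraries. Such separation of the diets was seen in 28.0% of the genes tested. Traf4 fell by 1.13 ± 0.225 (log2 fold change ± SE; edgeR adjusted p = 0.00429), the 108th lowest of the 7844 genes tested. Without HSD replicate 4 the log2 change of Traf4 was −0.92 ± 0.132 (edgeR adjusted p = 0.00029). The fall was not shown to exceed 1.5-fold (edgeR glmTreat adjusted p = 0.12). Antisense to Traf4 runs lncRNA:CR45363, which shares 26.8% of the exonic length of Traf4, and without a stated strand setting their reads could not be told apart.

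Whether fewer cells with the transcript or less transcript per cell underlies a difference cannot be told apart in sorted pools. Fat body markers, an indicator of other tissue in the preparation, summed to 44.0 and 70.6 CPM in CD replicates 1 and 3, to 13.5 and 12.8 CPM in CD replicates 4 and 5, and to 13.9 to 19.8 CPM in the HSD libraries. None of the 4 fat body markers tested passed (edgeR; 1 had an unadjusted p under 0.05), and their part in the Traf4 difference was not tested.

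Slipper is a kinase of the mixed-lineage family at the top of the relay. Its gene slpr (X, from 8170229 to 8177185) stood at 34.8, 47.9, 46.0 and 40.2 CPM in CD replicates 1, 3, 4 and 5 and at 47.0, 44.2, 43.7 and 35.7 CPM in HSD replicates 1, 2, 3 and 4. The diets overlapped, with the lowest library of each diet being CD replicate 1 and HSD replicate 4 (log2 change 0.01 ± 0.107 SE, edgeR adjusted p = 0.942).

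Hemipterous and Mkk4 are the kinases that phosphorylate Basket. Transcripts of hep (X, from 13079205 to 13090434) were at 114.6, 141, 139 and 140 CPM in the CD libraries, in the same order, and at 133, 131, 127 and 108 CPM in the HSD libraries. Again CD replicate 1 and HSD replicate 4 were lowest, and the diets overlapped (log2 change −0.10 ± 0.0798 SE, edgeR adjusted p = 0.402). Under plain library-size scaling the hep difference passed, at −0.27 (edgeR adjusted p = 0.0331, within 0.0331 to 1 over all alternatives). Mkk4 (3R, from 8646172 to 8650796) stood at 76.9, 85.1, 83.3 and 81.0 CPM in the CD libraries and at 76.6, 76.9, 69.8 and 73.3 CPM in the HSD libraries. The ranges met without overlapping at 76.9 CPM, and the difference missed the threshold (log2 change −0.14 ± 0.0525 SE, edgeR adjusted p = 0.073). Without CD replicate 1 the Mkk4 difference passed (log2 fold change −0.16, edgeR adjusted p = 0.0301, within 0.00178 to 1 over all alternatives). The count ratio of hep to Mkk4 was 1.63 ± 0.1002 on the control diet and 1.68 ± 0.149 on the high-sugar diet (SD, n = 4 each; exact two-sided permutation p = 0.571, adjusted over 4 ratios 0.571).

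Basket is the fly's JNK. The bsk gene (2L, from 10247502 to 10250501) was at 66.3, 62.1, 63.9 and 58.0 CPM in the CD libraries and at 67.1, 66.5, 62.1 and 70.6 CPM in the HSD libraries. The diets overlapped, and the spread within a diet was small, with a coefficient of variation of 5.64% on CD and 5.19% on HSD, where counting error alone gives 2.61% and 2.66% (log2 change 0.09 ± 0.0585 SE, edgeR adjusted p = 0.292).

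Both AP-1 genes varied widely between the libraries of the control diet. Transcripts of kay (3R, from 29765995 to 29794113), the Fos gene, stood at 147, 152, 167 and 247 CPM in CD replicates 1, 3, 4 and 5 and at 195, 169, 219 and 227 CPM in HSD replicates 1, 2, 3 and 4. Jra, the Jun gene (2R, from 10096480 to 10098556), stood at 96.4, 103, 117 and 171 CPM in the CD libraries and at 122, 99.9, 137 and 126 CPM in the HSD libraries. In both genes CD replicate 5 was the highest of all 8 libraries, HSD replicate 2 was the lowest HSD library and CD replicate 1 was the lowest of all. The coefficient of variation on the control diet was 26.2% for kay and 27.8% for Jra, where counting error alone gives 1.54% and 1.87%. On the high-sugar diet it was 12.7% and 12.8%. For the 4 kinase genes it ran from 4.35% to 14.1% on CD and from 4.46% to 11.4% on HSD, and these spreads were compared by no test. Of the exonic length of Jra 2.38% overlaps the antisense gene RpLP0-like, and reads there could not be assigned to either.

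Neither gene differed between the diets beyond that spread. For kay the log2 change was 0.19 ± 0.183 (SE; edgeR adjusted p = 0.508), and for Jra it was −0.00 ± 0.196 (edgeR adjusted p = 0.995). These values rested on 1 library: without CD replicate 5, kay was higher on the high-sugar diet by 0.39 ± 0.0941 on the log2 scale (edgeR adjusted p = 0.0136, within 0.00791 to 1 over all alternatives), and Jra by 0.21 ± 0.102 (edgeR adjusted p = 0.191).

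**Figure D3:**
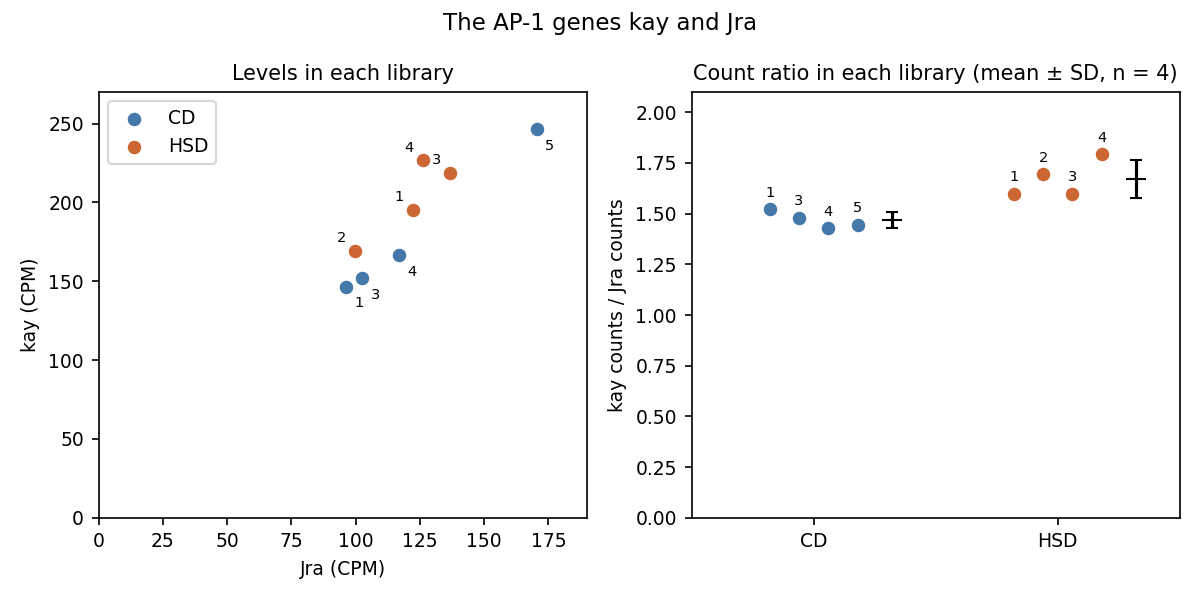
Left, kay against Jra (CPM) in each library, labelled by replicate number, with both axes from 0. Right, the ratio of kay counts to Jra counts in each library with the mean ± SD of 4 libraries per diet. The HSD libraries lie at ratios of 1.60 to 1.79 and the CD libraries at 1.43 to 1.52.

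The relation between the 2 AP-1 transcripts was one of 153 computed, for the 36 pairs of the 9 genes and for each of the 9 with each of 13 listed JNK targets of other tissues. Over the 8 libraries, log2 CPM of kay and Jra had a Pearson r of 0.915 (exact permutation p = 0.000769, adjusted over 153 relations 0.0392) and a Spearman rho of 0.905 (exact permutation p = 0.00456, adjusted 0.0997, which missed the threshold). Leaving out CD replicates 1 and 5, the libraries farthest from the median of Jra, r was 0.861. Within a diet 4 libraries are too few for a value. Of 36 pairs among the 9 genes, this was the single pair whose r passed, and points of 1 library share its preparation and depth.

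In each library more reads were counted for kay than for Jra, over a longer exonic length. The count ratio of kay to Jra, which does not depend on scaling, was 1.52, 1.48, 1.43 and 1.44 in CD replicates 1, 3, 4 and 5 and 1.60, 1.69, 1.60 and 1.79 in HSD replicates 1, 2, 3 and 4. The diets did not overlap, and the ratio was 1.14-fold higher on the high-sugar diet (1.67 ± 0.0932 against 1.47 ± 0.0413, SD, n = 4 each). The exact two-sided permutation p was 0.0286, the smallest that 4 libraries against 4 allow, and adjusted over the 4 ratios it was 0.0571, which missed the threshold. The kay gene has 5 annotated transcripts, which a count per gene does not separate.

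The feedback gene puc encodes a dual-specificity phosphatase that dephosphorylates Basket. It lies on chromosome 3R from 8105332 to 8122294 and stood at 55.2, 53.8, 59.8 and 58.4 CPM in CD replicates 1, 3, 4 and 5 and at 69.6, 66.3, 62.8 and 60.5 CPM in HSD replicates 1, 2, 3 and 4. The ranges did not overlap, but CD replicate 4 and HSD replicate 4 lay within each other's counting intervals, 56.7 to 63.1 CPM and 57.1 to 63.9 CPM (exact binomial, 95%). The gene puc rose by 0.19 ± 0.0595 on the log2 scale (SE; edgeR adjusted p = 0.0328), the 1710th highest of the genes tested. The puc call was lost without CD replicate 3 or 5 (edgeR adjusted p = 0.113 and 0.0539) and without HSD replicate 1 or 2 (0.109 and 0.0876). Under plain library-size scaling its log2 change was 0.03 (edgeR adjusted p = 0.759, within 0.00477 to 1 over all alternatives). The count ratio of puc to bsk overlapped between the diets, at 0.910 ± 0.0776 on CD and 0.975 ± 0.0808 on HSD (exact two-sided permutation p = 0.286, adjusted over 4 ratios 0.381).

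Against the wide spread of kay and Jra between CD libraries, that of puc was narrow. Its coefficient of variation was 4.92% on CD and 6.18% on HSD. In CD replicate 5, where kay and Jra exceeded the mean of the diet by 0.50 and 0.53 on the log2 scale, puc exceeded it by 0.04. Over the 8 libraries kay and puc had a Pearson r of 0.346 (exact permutation p = 0.392, adjusted over 153 relations 0.734). Their Spearman rho was 0.405 (exact permutation p = 0.327, adjusted 0.68). Without CD replicate 5 and HSD replicate 4, the libraries farthest in kay, the diets form separate clusters in both genes. No r is therefore given for the libraries left.

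The gene scaf encodes Scarface, a secreted relative of serine proteases that lacks catalytic activity and is a JNK target during closure of the embryonic epidermis. It lies on chromosome 2R from 5676750 to 5691723. Transcripts were scarce, with 14, 19, 18 and 11 counts in CD replicates 1, 3, 4 and 5 and 50, 37, 38 and 41 counts in HSD replicates 1, 2, 3 and 4. In CPM these were 0.663, 0.709, 0.787 and 0.466 on the control diet and 2.31, 1.75, 1.70 and 2.03 on the high-sugar diet. The lowest HSD library stood above the highest CD library, and the exact 95% counting intervals of single libraries reached at most 1.24 CPM on CD and started at 1.204 CPM or higher on HSD. The spread within a diet, a coefficient of variation of 20.8% on CD and 14.4% on HSD, was no larger than the 25.4% and 15.5% that counting error alone gives.

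The gene scaf rose by 1.56 ± 0.24 on the log2 scale (SE; edgeR adjusted p = 0.000407), the 89th highest of the genes tested, and it exceeded a 1.5-fold change beyond its error (edgeR glmTreat adjusted p = 0.0079). Leaving out any single library gave log2 fold changes from 1.43 to 1.66. The count ratio of scaf to bsk was 0.0292 ± 0.0036 on HSD against 0.0104 ± 0.00187 on CD, without overlap (exact two-sided permutation p = 0.0286, adjusted over 4 ratios 0.0571). The abundance of scaf lay at percentile 9.54 of the genes tested, below the other 8 genes.

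Markers of other hemocyte classes were also higher on the high-sugar diet, beside scaf and puc. For the counts that follow, 14.4% of all genes tested were called higher. Of 7 lamellocyte markers tested 5 rose and none fell, among them atilla, at 0 to 0.635 CPM on CD and 3.60 to 7.61 CPM on HSD, and ItgaPS4, at 0 counts in 3 CD libraries and 1.73 to 5.60 CPM on HSD. The summed lamellocyte markers overlapped, at 1282 to 1689 CPM on CD and 1602 to 1833 CPM on HSD. Most of that sum was cher, at 831 to 1148 CPM on CD and 925 to 1169 CPM on HSD. The gene mys added 248 to 324 CPM on CD and 291 to 321 CPM on HSD. Neither cher nor mys passed (edgeR adjusted p = 0.54 and 0.96). Of 6 crystal cell markers 5 rose and none fell, with sums of 22978 to 27140 CPM on CD and 29409 to 44769 CPM on HSD. Of 10 plasmatocyte markers 8 rose and none fell, with sums of 76097 to 86911 CPM on CD and 108975 to 123071 CPM on HSD. Of 7 muscle markers 1, the titin-related gene bt, rose, and their sum was 30.6 to 53.9 CPM on CD and 89.1 to 114.9 CPM on HSD. Most of that sum was bt, at 19.8 to 40.6 CPM on CD and 77.5 to 103.5 CPM on HSD. Of 4 markers of lymph gland progenitors 2 could be tested, of which Tep4 rose and dome did not pass. The list of epidermis and disc markers overlapped, at 2647 to 3307 CPM on CD and 2131 to 3414 CPM on HSD, nearly all of it from Ubx. Its members vg, at 0 in 5 libraries, and crb, at no more than 0.179 CPM in any library, were at or near 0. Its member grh was detected in every library, at 0.663 to 2.43 CPM on CD and 1.34 to 2.94 CPM on HSD. These levels are near those of scaf, and grh did not pass (edgeR adjusted p = 0.874). The part of these cell types in the scaf and puc differences was not tested.

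Further genes of the pathway were taken from lists by role, whose calls stand beside 26.0% of all genes tested called, 14.4% higher and 11.6% lower. Of 13 tested genes for upstream signals and receptors 2 rose, 2 fell and 9 did not pass, a share near that of all genes. Transcripts of egr, the gene for the ligand Eiger, stood at 29.0 ± 1.001 CPM on CD and at 47.2 ± 1.86 CPM on HSD, a rise of 1.63-fold (edgeR adjusted p = 1.5e-06). Its receptor gene wgn was scarce, at 1.22 ± 0.248 and 1.13 ± 0.371 CPM (edgeR adjusted p = 0.824). The listed receptor gene grnd was not found by FlyBase identifier in the count table, so its level is not known here. The receptor tyrosine kinase gene Pvr rose 1.19-fold, the Tec-family kinase gene Btk fell by 0.37 and the Wnt pathway adaptor gene dsh by 0.17 on the log2 scale. Thus the ligand gene and the adaptor gene Traf4 moved in opposite directions. Leaving out CD replicate 3, CD replicate 5 or any HSD library but replicate 3 ended the dsh call (edgeR adjusted p from 0.0562 to 0.081). Without CD replicate 1 the list had 2 higher and 4 lower, where 1408 of all 7951 genes tested were higher and 1223 lower. Under plain library-size scaling 1 member was called higher and 7 lower, where 690 of all 7844 genes tested were higher and 3161 lower. Pvr was no longer called under that scaling (edgeR adjusted p = 0.36).

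Of 9 kinases and scaffolds that act on or beside hep and Mkk4, 3 fell and 6 did not pass, where 11.6% of all genes tested were called lower. The Ste20-type kinase gene msn fell by 0.27 (from 276 ± 11.2 to 228 ± 8.89 CPM, edgeR adjusted p = 0.00122), Tak1, a kinase that also serves the immune deficiency pathway, by 0.18 (edgeR adjusted p = 0.0266), and Mekk1 by 0.20 (edgeR adjusted p = 0.0352). The median log2 fold change of this tier was −0.14, against −0.01 over all genes tested, and −0.31 under plain library-size scaling. The Tak1 call was lost without any 1 of CD replicates 3, 4 and 5 and HSD replicates 1, 2 and 4 (edgeR adjusted p from 0.059 to 0.0816), and the Mekk1 call without any 1 library other than CD replicate 1 (0.0533 to 0.113). The list had 4 lower without CD replicate 1, where 1223 of all 7951 genes tested were lower. It had 1 lower without HSD replicate 4, where 801 of all 7926 were lower. The apoptosis signal-regulating kinase gene Ask1 stood at 42.3 ± 2.88 and 38.8 ± 2.49 CPM (edgeR adjusted p = 0.197).

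**Figure D4:**
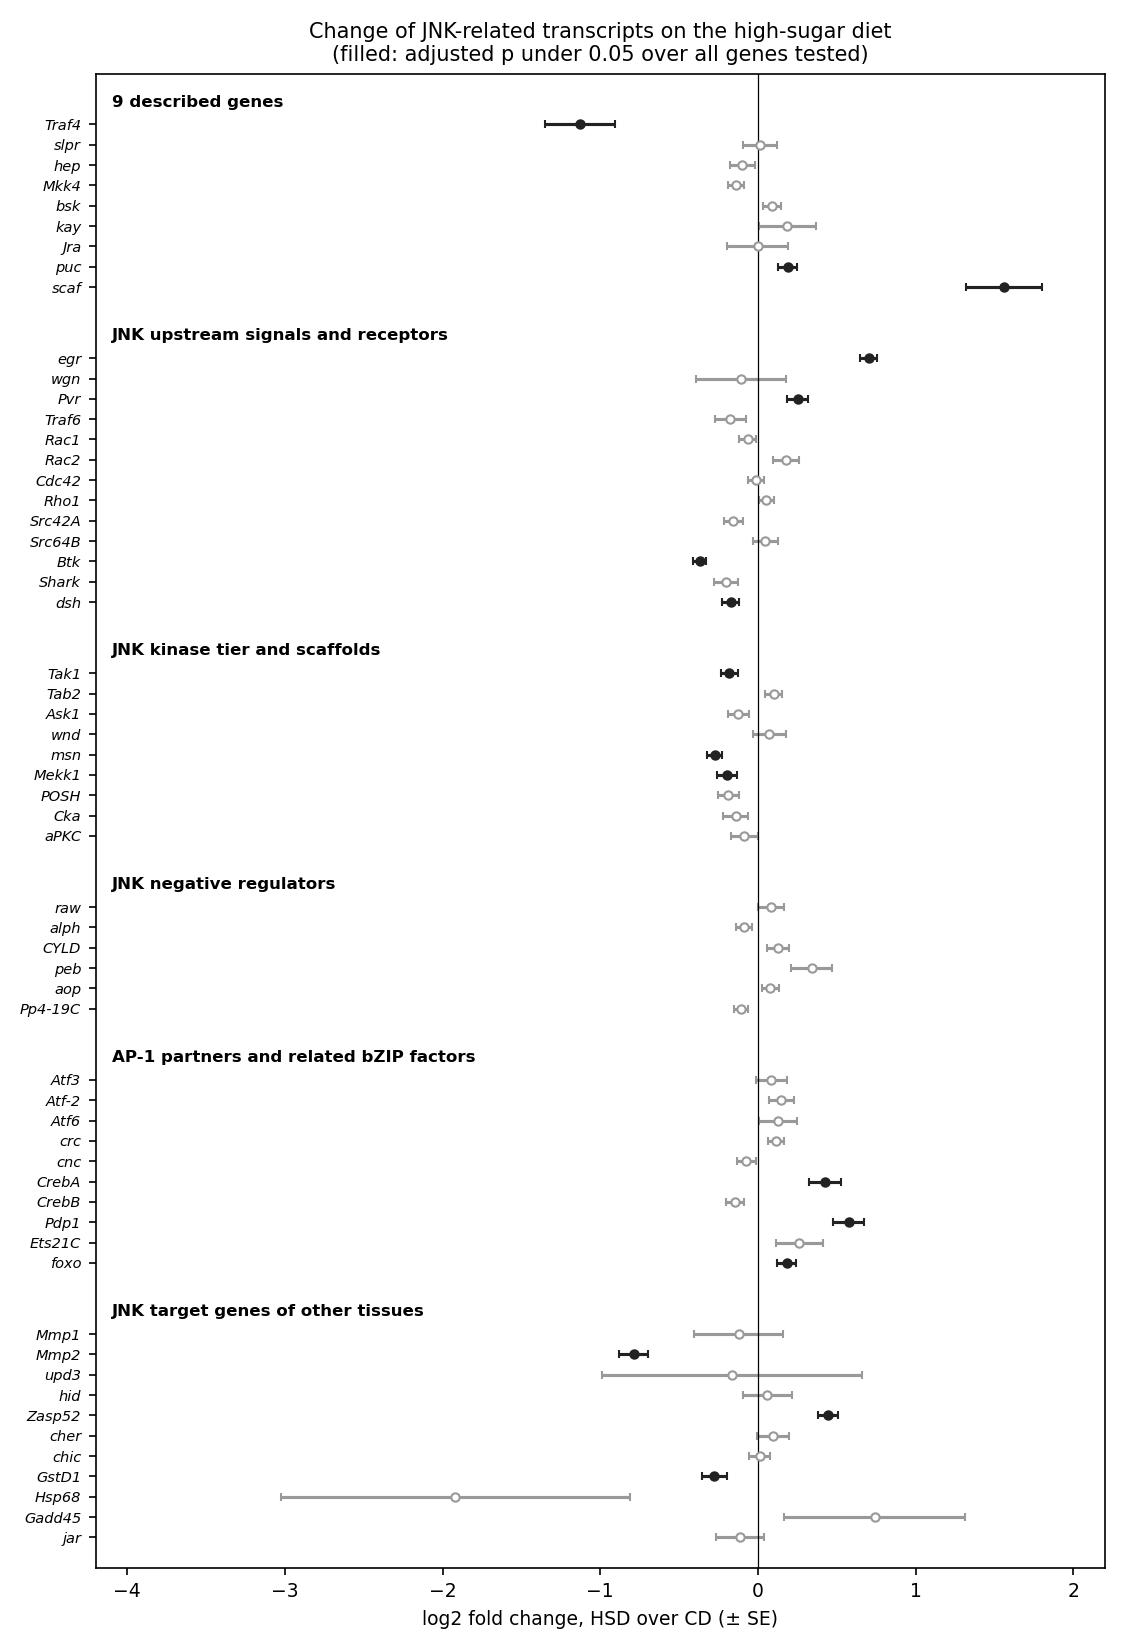
Log2 fold change (HSD over CD, ± SE) of the 9 genes and of 5 lists of related genes by role, with filled points for edgeR adjusted p under 0.05 over all genes tested. Among the 9 genes Traf4 lies at −1.13, scaf at 1.56 and the others between −0.14 and 0.19.

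None of 6 tested negative regulators passed (edgeR; 2 had an unadjusted p under 0.05, DESeq2 called 1 and limma-voom 2). Without HSD replicate 4, without CD replicate 4, and with both CD replicate 1 and HSD replicate 4 left out, 1 was called higher. The gene raw, an antagonist of the pathway, stood at 49.5 ± 5.88 on CD and 52.4 ± 2.79 CPM on HSD (edgeR adjusted p = 0.499). Of 10 AP-1 partners and related factors, mostly of the bZIP class, 3 rose and 7 did not pass, beside 26.0% of all genes tested called: CrebA, a regulator of secretory genes, rose 1.34-fold, Pdp1 1.49-fold and foxo, a forkhead factor of insulin and stress signalling, 1.14-fold. The stress-linked factor genes Atf3 and Ets21C, which JNK signalling can induce in other tissues, did not pass (log2 fold changes 0.09 and 0.26, edgeR adjusted p = 0.568 and 0.224). Without CD replicate 1 the list had 3 higher and 2 lower, where 1408 of all 7951 genes tested were higher and 1223 lower. The median of the list was 0.14, and −0.03 under plain library-size scaling. There 1 member was called higher and 2 lower, beside 690 higher and 3161 lower of all 7844 genes tested. Under that scaling foxo and CrebA were no longer called (edgeR adjusted p = 0.821 and 0.0648). The foxo call was also lost without any 1 of CD replicates 3, 4 and 5 and HSD replicates 1 and 2 (edgeR adjusted p from 0.0648 to 0.126), and with both CD replicate 1 and HSD replicate 4 left out CrebA did not pass (edgeR adjusted p = 0.122).

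Of 22 genes listed as JNK targets in other tissues, 19 were in the table and 13 had enough counts to be tested. Of these 1 rose, 2 fell and 10 did not pass, a share near the 26.0% called over all genes tested, and their median log2 fold change was 0.01. Zasp52, a scaffold of actin cables, was at 146 ± 11.1 CPM on CD and 199 ± 12.8 CPM on HSD, a rise of 1.36-fold (edgeR adjusted p = 0.000244). The matrix metalloproteinase gene Mmp2 fell by 0.79 on the log2 scale (from 84.6 ± 6.16 to 49.0 ± 6.88 CPM, edgeR adjusted p = 5.6e-05), and the glutathione transferase gene GstD1 by 0.28 (edgeR adjusted p = 0.023). Leaving out CD replicate 5 or any HSD library but replicate 4 ended the GstD1 call (edgeR adjusted p from 0.0508 to 0.07). The hormone gene Ilp8 had 3 counts on CD and 0 on HSD, and the cell death gene rpr had 19 and 7.

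The metalloproteinase gene Mmp1 and the cytokine gene upd3, both known JNK targets, also varied widely between CD libraries. Mmp1 stood at 30.2, 38.2, 44.2 and 72.6 CPM in CD replicates 1, 3, 4 and 5 and at 44.8, 33.1, 44.5 and 48.0 CPM in HSD replicates 1, 2, 3 and 4. The counts of upd3 were 3, 16, 17 and 82 in the CD libraries and 42, 9, 24 and 20 in the HSD libraries. CD replicate 5 was the highest and CD replicate 1 the lowest, and HSD replicate 2 was the lowest HSD library. Neither gene passed (log2 fold changes −0.12 and −0.16, standard errors 0.283 and 0.826, edgeR adjusted p = 0.798 and 0.914), and without CD replicate 5 these became 0.18 and 1.13 (edgeR adjusted p = 0.455 and 0.172).

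Of the 117 relations between the 9 genes and the 13 targets over the 8 libraries, 2 passed by Pearson r, and the Spearman rho of neither passed (exact permutation, adjusted over 153 relations). Jra and Mmp1 had an r of 0.958 (exact permutation p = 0.000521, adjusted 0.0392) and a rho of 0.929 (adjusted 0.0854), and r was 0.863 without CD replicates 1 and 5. The other was Traf4 with Mmp2, both of which were lower in every HSD library, so that the diets form separate clusters and no pooled r is given. Over the 13 targets r ran from −0.723 to 0.958 for Jra, with a median of 0.223, and from −0.688 to 0.843 for kay, with a median of 0.294. The relations of Jra with upd3 (r = 0.887), kay with Mmp1 (r = 0.843) and kay with Gadd45, a stress gene (r = 0.787), each missed the threshold at an adjusted p of 0.0813. So did puc with Zasp52 at the same adjusted p, both of which were higher in every HSD library, so no pooled r is given. No relation of Ets21C or Atf3 with kay or Jra passed (exact permutation, adjusted p from 0.739 to 0.801). Their r was 0.294 and 0.298 with kay and 0.186 and 0.322 with Jra. In the list of heat-shock and immediate early genes, the immediate early gene Hr38 held no more than 0.339 CPM in any library. The sum of that list, nearly all from heat-shock genes, stood at 43055, 4800, 4466 and 4039 CPM in CD replicates 1, 3, 4 and 5. The part of this sum in these values was not tested.

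**Figure D5:**
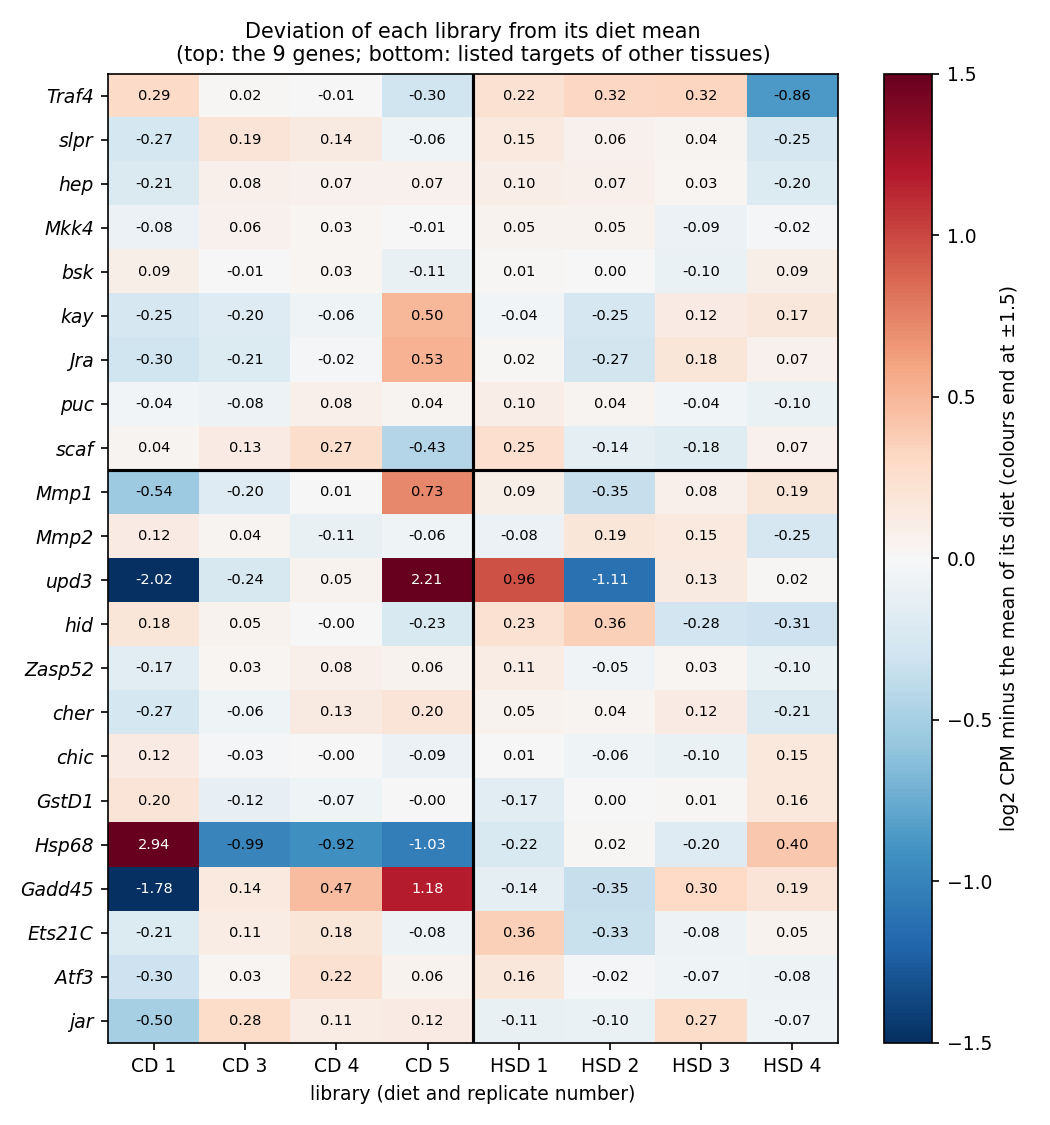
Log2 CPM of each library minus the mean of its diet, for the 9 genes (top) and the 13 listed targets tested (bottom), with red above and blue below the mean. In CD replicate 5 kay, Jra, Mmp1, upd3 and Gadd45 lie 0.50 to 2.21 above the mean, while puc lies at 0.04. Hsp68 lies at 2.94 in CD replicate 1 and at −0.99, −0.92 and −1.03 in CD replicates 3, 4 and 5.

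The other MAP kinase modules were read for comparison, with calls in either direction near the 26.0% of all genes tested. By direction, 14.4% of all genes tested were called higher and 11.6% lower. Of 7 genes of the p38 module 2 fell and 5 did not pass. Those that fell were Mekk1, also counted among the kinases and scaffolds above, and p38c. The level of p38c was 2.29 ± 0.821 CPM on CD and 1.16 ± 0.196 CPM on HSD (edgeR adjusted p = 0.0165). Of 12 genes of the ERK module 1 rose and 3 fell: the ERK phosphatase gene Mkp3 fell by 0.51, the kinase gene Dsor1 by 0.28 and the exchange factor gene Sos by 0.22 on the log2 scale, while sty, which encodes the inhibitor Sprouty, rose 1.29-fold (edgeR adjusted p from 0.000337 to 0.00606). The median log2 fold changes were −0.04 for p38 and −0.01 for ERK, and −0.21 and −0.17 under plain library-size scaling. Whether these modules differ from the JNK genes was not tested.

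For 3 members, the genes with the most similar profile over the 8 libraries were sought among the genes that averaged 10 CPM or more. Nearest to scaf were Inx3, a gap junction gene (from 15.6 ± 1.11 to 31.5 ± 2.89 CPM), CG7739 and CG7800, each with HSD libraries above CD libraries. As in scaf, the diets form separate clusters in these genes, so no pooled r is given. For puc the nearest were PRAS40, a regulator in TOR signalling (r = 0.959), kek5 (r = 0.953) and Apoltp, a lipoprotein gene. The libraries of Apoltp separate by diet as those of puc do, so its r is not given. PRAS40 was also higher on the high-sugar diet (edgeR adjusted p = 0.0303), so its r includes a difference between the diets. Its ranges overlapped only slightly, at 40.2 to 43.2 CPM on CD and 42.9 to 52.1 CPM on HSD. The gene kek5 did not pass (edgeR adjusted p = 0.0878). For kay they were the annexin gene AnxB9 (r = 0.929), ush, a hemocyte cofactor of GATA factors (r = 0.928), and the exocyst gene Exo84 (r = 0.919), none of which passed the test between diets. All these genes are the closest of 5837 profiles or, for scaf, of 5838, by Pearson r of log2 CPM, which carries no test.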

How the data were processed

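The deposited values are raw whole-number counts per gene in 8 libraries of sorted larval hemocytes. The submitters' processing notes name Trim Galore 0.6.7, STAR 2.7.10a, featureCounts and the dm6 build, without roles. The sources used here do not give the strand setting, the featureCounts version or the handling of reads with several matches. Coordinates and merged exons were read from Ensembl's annotation of dm6. Genes passing filterByExpr (minimum count 10) were scaled by TMM and tested with edgeR 4.0.16 in R 4.3.3 (robust quasi-likelihood, diet as the only term, Benjamini-Hochberg over 7844 genes). Standard errors (SE) were taken as the size of the log2 fold change over the root of F. Log2 CPM for relations used a prior count of 1; the 153 relations were widened to all 13 tested targets after their values were seen. Count ratios were compared by exact two-sided permutation of libraries. Intervals cover counting error only, since PCR copies carried no molecular identifiers. The fit was also run on counts simulated from its own means and dispersions, which cannot show whether the model suits these data. Members, lists and alternatives were chosen with earlier results of these data known. Named were all 9 members, up to 4 called genes per list by smallest p, a fixed set (egr, grnd, wgn, Tak1, Ask1, msn, Mmp1, upd3, Atf3, Ets21C, raw) and the 3 nearest profiles of puc, scaf and kay; Ilp8, rpr and Gadd45 were named after their values were seen. Alternatives were other scalings and filters, DESeq2 1.42.0, limma-voom 3.58.1, a replicate block, leaving out libraries, and glmTreat. The genes grnd, upd1, zip and wg, and promoter sequences, were not analysed here.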

Additional observations from a re-analysis of the deposited data

Results flagged for a closer look

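In 76 groups of 4 libraries, 5 single libraries lay apart from the other libraries of their diet by Dixon's criterion at 95%, where chance gives about 1 in 20 groups. Among the 9 genes these were hep in CD replicate 1, at 114.6 CPM where the other CD libraries held 139 to 141 CPM, and Traf4 in HSD replicate 4, at 2.73 CPM where the other HSD libraries held 5.82 to 6.22 CPM. Among the further genes, Pvr was low in CD replicate 1 at 652 CPM (others 748 to 763 CPM) and in HSD replicate 4 at 777 CPM (others 890 to 911 CPM). The gene wgn was low in CD replicate 5 at 0.847 CPM (others 1.33 to 1.35 CPM).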

How the results depend on the processing

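Of the 9 genes, scaf stayed higher and past the threshold in all 17 alternative fits that tested it (too scarce for the filter of at least 5 CPM in 4 libraries), and Traf4 stayed lower in all 18, past the threshold in 17. The 3 calls (2 higher, 1 lower) became 1 higher and 3 lower under plain library-size scaling, 1 higher with the 5 CPM filter, 1 in all (1 higher, 0 lower) against a 1.5-fold change, and 2 lower with limma-voom, at a threshold of 0.1, and without CD replicate 1 and HSD replicate 4 together. Leaving out 1 library gave 1 to 2 higher and 1 to 2 lower. The log2 ratio of hep to Mkk4 ran from −0.00417 (without CD replicate 1) to 0.102 when 1 library was left out. The other ratios kept their direction in every alternative, kay to Jra between 0.15 and 0.21. With 3 libraries against 4 the smallest p is 0.0571, so these say nothing of the call.

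Directions turned for uncalled log2 fold changes near 0. Under plain library-size scaling bsk was −0.074, slpr −0.153, raw −0.0849 and Atf3 −0.0816. With upper quartile scaling Jra was 0.00287. With limma-voom slpr was −0.0288 and upd3 0.0923. Leaving out 1 library gave slpr −0.0603 to 0.0903, Jra −0.0897 to 0.206, Mmp1 −0.268 to 0.181, upd3 −0.577 to 1.13 and wgn −0.247 to 0.0802. With a replicate block slpr was −0.022, Jra 0.29, Mmp1 0.30 and upd3 1.39. The cause was not tested.

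The labels do not say whether the shared numbers 1, 3 and 4 pair the libraries, and 2 libraries have no partner. Same-numbered deviations correlated at −0.123, −0.0694 and −0.17, within the −0.182 to 0.214 of differently numbered ones. These correlations cannot settle the pairing. With the replicate block 3 of the 9 genes were called, kay (0.46, edgeR adjusted p = 0.00791), scaf and Traf4, and puc was not (edgeR adjusted p = 0.269). For the ratios the block gave 0.17 (kay to Jra), 0.14 (puc to bsk), 1.42 (scaf to bsk) and 0.06 (hep to Mkk4), with a smallest possible p of 0.25.

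Calls in the lists ran, over the alternatives, from 0 to 8 for upstream signals, 0 to 7 for kinases and scaffolds, 0 to 2 for negative regulators, 0 to 5 for AP-1 partners, 0 to 4 for other targets, 0 to 5 for p38 and 0 to 6 for ERK. Over all genes they ran from 271 against a 1.5-fold change to 3851 with library size only, against 2040. With 11 to 19 counts per CD library, differences in scaf within a diet are not detectable.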
